A study of Homo sapiens with 8 samples.

Results

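The genes described here are 9 unconventional myosins, MYO5C and 8 relatives (MYO5A, MYO1C, MYO1E, MYO6, MYO9B, MYO10, MYO18A and MYO19), out of 13546 genes with counts. MYO5C was selected on its own read counts in these same libraries, which differed between the genotypes, so its difference is given as a description with no test. The other 8, MYO5A of the same class and 7 of other classes, were listed by name, and all 9 had counts. The question was whether the higher level of MYO5C in CDK4 knockout tumours was shared by other unconventional myosins.

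Unconventional myosins are actin-based motors outside the filament-forming myosin II group. Each has a motor head that binds actin and hydrolyses ATP, a neck that binds calmodulin or related light chains, and a tail that binds cargo or membrane. Class V myosins walk towards the barbed ends of actin filaments and carry vesicles, often through Rab GTPases; MYO5C is the class V member best known from epithelial and glandular cells, where it associates with secretory granules and recycling membranes. Class VI moves the opposite way, class I links membrane to actin, and class X builds filopodia.

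The samples were tumours grown in nude mice from MDA-MB-231, a human cell line of triple-negative breast cancer. Of the 8 libraries, 4 came from cells with intact CDK4 (CDK4WT) and 4 from cells that the labels call CDK4 knockout (CDK4KO). CDK4 encodes a kinase that, bound to cyclin D, drives cells from G1 into S phase. Nude mice lack mature T cells but keep other host cells, and the labels give neither the way CDK4 was disrupted, nor the number of clones, nor the age of the mice. They also do not say that each tumour came from a separate mouse, and the p-values then cover nothing beyond the spread among these 8 libraries, which may be technical.

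Libraries held 27840883 to 33617977 counts. CDK4 mRNA stood at 107 to 116 CPM (read counts scaled to library size, with TMM factors) in CDK4WT and 111 to 134 CPM in CDK4KO, which leaves the labels unchecked. CDK4KO library 1 stood apart on the second principal component, at -31.3 against -1.49 to 9.54 in the other libraries. CDK4KO library 4 was at the end of the first component, at 27.1 against -15.4 to 12.9 in the other libraries. All 8 MDA-MB-231 markers had counts, with VIM at 7807 to 11510 CPM, and of 7 luminal genes ESR1, PGR and CDH1 were not analysed here. The other 4 luminal genes were measured, KRT8 at 235 to 266 CPM, ERBB2 at 95.4 to 109 CPM, EPCAM at 7.25 to 11.1 CPM and GATA3 at 5.99 to 8.32 CPM over the 8 libraries. Summed markers of host leukocytes were at 17.7 to 29.9 CPM in CDK4WT and 20.9 to 23.0 CPM in CDK4KO (5 of 8 measured), and those of fibroblasts and pericytes at 777 to 1190 and 684 to 1180 CPM (5 of 8). Endothelial markers were at 332 to 373 CPM in CDK4WT and 393 to 458 CPM in CDK4KO (7 of 8), mostly from TIE1, ESAM and ROBO4, while VWF stayed at 0.69 to 1.30 CPM. Of the 7 endothelial genes measured, 6 had positive log2 fold changes (51.2% of all genes), with a median of 0.19. ROBO4 was at 0.54 and ESAM at 0.19, and the 1 negative value was -0.19 for TIE1. The few muscle and fat markers summed to 9.94 to 31.9 and 1.18 to 2.58 CPM in CDK4WT, against 6.58 to 14.1 and 0.723 to 1.26 CPM in CDK4KO. All 14 hypoxia-response genes had negative log2 fold changes, summing to 4310 to 6600 CPM in CDK4WT and 3060 to 4180 CPM in CDK4KO. The part of the endothelial, muscle, fat and hypoxia differences in the results on myosins was not tested.

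MYO5C was higher in every CDK4KO tumour than in any CDK4WT tumour. The 4 CDK4WT libraries had 86.9, 77.7, 84.2 and 82.3 CPM and the 4 CDK4KO libraries 111, 137, 125 and 133 CPM, replicates 1 to 4. CDK4KO library 1, which stood apart on the second principal component, was the lowest of its genotype and still above the highest CDK4WT library. Means were 82.8 CPM ± 3.85 and 126 CPM ± 11.4 (SD, n = 4 each), a log2 fold change of 0.61 ± 0.07 (SE), or 1.53-fold. These levels rest on 2347 to 4547 reads per library, so counting contributes little to their error. In a bulk sample, a change in the number of cells of a type and a change in RNA per cell cannot be told apart. This holds for this gene and for those that follow. MYO5C (ENSG00000128833) is a protein-coding gene on the minus strand of chromosome 15, from 52192322 to 52295798 (hg38, GENCODE 29). Of its exon bases, 3.17% overlap those of CERNA1, a long non-coding gene on the other strand, and the strand setting of the counting is not given in the sources used here.

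MYO5A, the class V motor that carries melanosomes and endoplasmic reticulum, lies next to MYO5C on the same strand (ENSG00000197535, chromosome 15, 52307283 to 52529050), with 11.5 kb between the genes. Its levels were 80.9, 88.6, 81.2 and 84.8 CPM in CDK4WT and 89.8, 99.5, 99.1 and 81.1 CPM in CDK4KO. The genotypes overlapped, with CDK4KO library 4 among the CDK4WT values. The log2 fold change was 0.14 ± 0.07 (edgeR quasi-likelihood test, adjusted p = 0.448), with a 95% interval of -0.02 to 0.30. MYO5B, the class V motor of Rab11 recycling endosomes, was near the lowest levels of the table (CDK4WT 1.30 to 1.94 CPM, CDK4KO 1.16 to 3.01 CPM), and did not pass (0.32 ± 0.27, adjusted p = 0.641). Leaving out 1 library moved MYO5B between 0.07 and 0.51. Without CDK4KO libraries 1 and 4, a choice made after seeing the data, MYO5B was at 0.67 (edgeR adjusted p = 0.124) and MYO5C at 0.66. MYO5A was then at 0.24 (edgeR adjusted p = 0.0546), and neither MYO5A nor MYO5B passed. Of the counts of the 3 class V genes, MYO5C took 49.2% ± 2.21 in CDK4WT (46.3% to 51.4%) and 57.2% ± 3.02 in CDK4KO (54.9% to 61.5%). This share carries over the difference for which MYO5C was chosen, so it is given with no test.

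For these adjacent class V genes, the 250 bases before the RefSeq start of each are shown (GRCh38.p14, minus strand, 5′ to 3′), MYO5C from chr15:52295805-52296054 and MYO5A from chr15:52529051-52529300. Capitals mark CCAAT, the letters bound by the factor NF-Y, or its complement ATTGG.
MYO5C: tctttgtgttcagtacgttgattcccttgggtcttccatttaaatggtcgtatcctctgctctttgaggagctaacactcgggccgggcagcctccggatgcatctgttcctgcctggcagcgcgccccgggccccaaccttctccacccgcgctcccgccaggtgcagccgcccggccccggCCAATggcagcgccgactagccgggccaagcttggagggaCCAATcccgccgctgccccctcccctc
MYO5A: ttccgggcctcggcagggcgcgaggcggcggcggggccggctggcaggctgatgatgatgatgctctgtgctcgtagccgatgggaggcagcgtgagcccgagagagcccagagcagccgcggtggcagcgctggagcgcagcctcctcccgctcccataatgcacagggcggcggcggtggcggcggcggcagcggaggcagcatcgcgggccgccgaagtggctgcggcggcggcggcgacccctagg

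The MYO5C window held 2 CCAAT matches on either strand and the MYO5A window 0. The letters occurred in 33.0% of 27305 such windows and in 2 of the 9 myosins, the other being MYO1E. GC content was 65.6% for MYO5C and 75.2% for MYO5A, against a median of 58.0% over all windows. GGGCGG, the letters of a GC box, occurred once in each of the pair, in 7 of the 9 myosins and in 42.3% of all windows. ACGTG, the core letters of hypoxia-response elements, occurred in neither of the pair, in 4 of the 9 (MYO6, MYO10, MYO18A and MYO19) and in 18.7% of all windows. TATAAA and the E2F-type letters TTTGGCGC occurred in 0 of the 9, against 11.1% and 0.553% of all windows. No motif contains another, each was searched on both strands, and a match is a string of letters and not a measured binding site. The part of these letters in the levels of the genes was not tested.

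**Figure D1:**
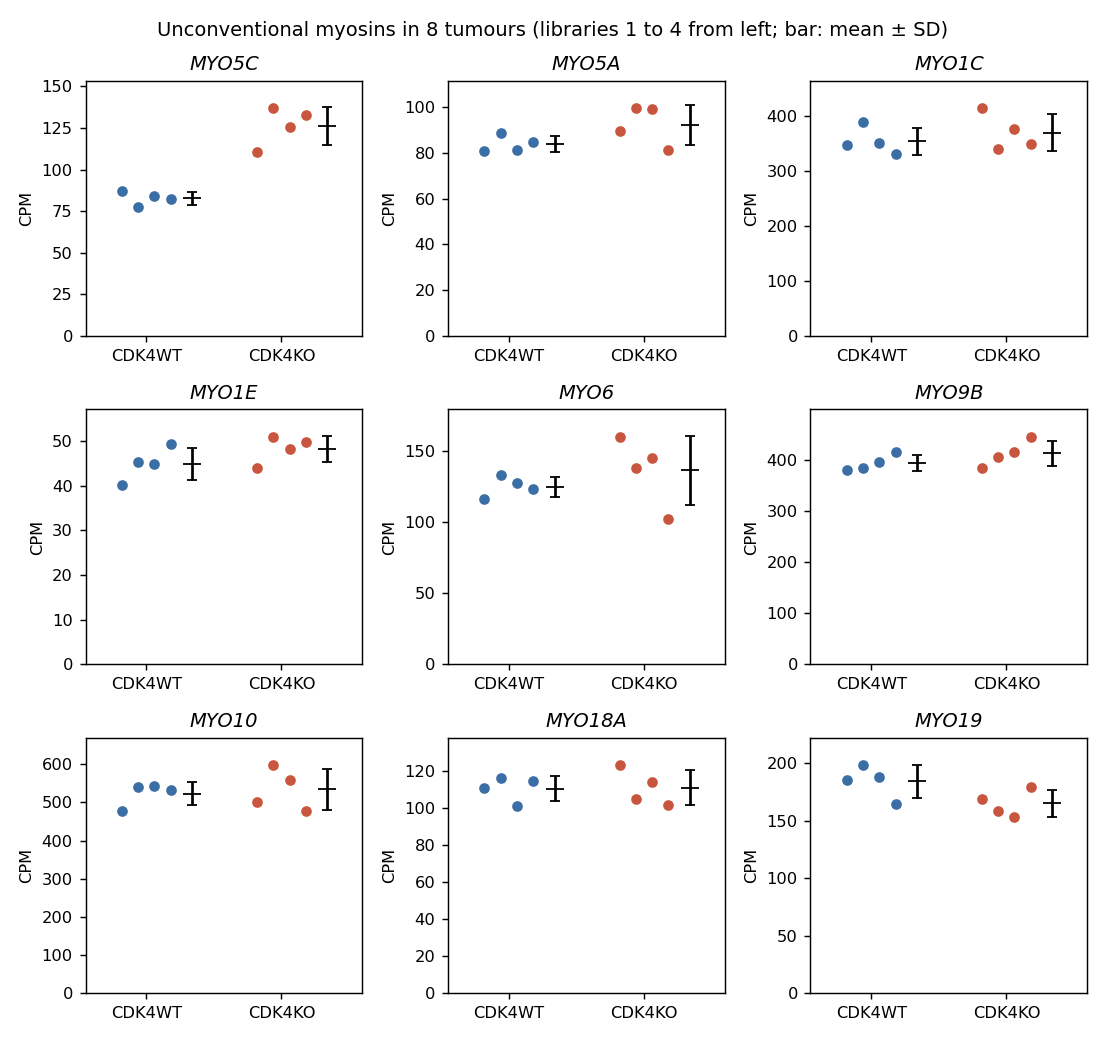
CPM (y axis, from 0) of the 9 listed myosins in each CDK4WT (blue) and CDK4KO (red) library, with replicates 1 to 4 from left to right and mean ± SD in black (n = 4). MYO5C is the panel in which the genotypes do not overlap, at 77.7 to 86.9 against 111 to 137 CPM.

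The other 8 listed myosins did not pass the test. Over all 13546 genes edgeR called 8 at an adjusted p of 0.05, or 0.0591% (0.0443% higher in CDK4KO), and among the 8 relatives of MYO5C it called 0, the adjusted p lying between 0.391 and 0.984. Before adjustment, the count with p under 0.05 was 0 of 8 with edgeR, 1 with DESeq2 and 3 with limma voom with library quality weights. The same held for 13.0% of all genes with edgeR, 13.4% with DESeq2 and 20.8% with limma voom. DESeq2 called 2.33% of all genes and limma voom 2.1% after adjustment, and each called 0 of these 8. Log2 fold changes ran from -0.16 (MYO19) to 0.14 (MYO5A), 7 positive and 1 negative, with a median of 0.06 against 0.004 over all genes, of which 51.2% were positive. In 0 of the 8 were the genotypes separate, where 7.68% of all genes were (3.87% with CDK4KO above). The upper ends of their 95% intervals were at most 0.38 (MYO6).

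Class I was represented by MYO1C and MYO1E. MYO1C, which tethers membrane to cortical actin and takes part in glucose transporter delivery, had 347, 389, 352 and 331 CPM in CDK4WT and 415, 341, 377 and 349 CPM in CDK4KO. CDK4KO library 1 was the highest of the 8 and the other libraries were interleaved (log2 fold change 0.06 ± 0.08, 95% interval -0.11 to 0.23). MYO1E, a long-tailed class I myosin of endocytic sites and podocyte foot processes, had 40.3, 45.2, 44.8 and 49.3 CPM and 44.0, 51.0, 48.2 and 49.7 CPM. Its genotypes overlapped across most of their range (0.10 ± 0.08, 95% interval -0.06 to 0.27). MYO1E lies on chromosome 15 as well, but from 59132434 to 59372900, several megabases from MYO5C, and MYO1C on chromosome 17 from 1464186 to 1492812.

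MYO6 is the myosin that moves towards filament pointed ends and works in endocytosis and autophagy. Its CDK4WT libraries had 116, 133, 127 and 123 CPM and its CDK4KO libraries 160, 138, 145 and 102 CPM. It had the widest spread among the 9 in CDK4KO, a coefficient of variation of 17.9% against 5.65% in CDK4WT, and CDK4KO libraries 1 and 4 were the highest and the lowest of all 8. The log2 fold change was 0.13 ± 0.12 (95% interval -0.13 to 0.38), 0.24 without CDK4KO replicate 4 and 0.04 without CDK4KO replicate 1. It did not pass in either case.

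MYO9B carries a RhoGAP domain that turns off RhoA, the GTPase upstream of myosin II contractility. It was among the most abundant of the set, at 381, 383, 394 and 414 CPM in CDK4WT and 384, 405, 415 and 444 CPM in CDK4KO. The ranges overlapped, with a log2 fold change of 0.07 ± 0.06 (95% interval -0.07 to 0.21). MYO10, the filopodial motor that carries integrins and other cargo to filopodial tips, had 478, 541, 542 and 532 CPM and 502, 598, 560 and 478 CPM. Its lowest values in the 2 genotypes were alike and its log2 fold change was 0.03 ± 0.08 (95% interval -0.15 to 0.21), turning to -0.03 without CDK4KO replicate 2 and -0.01 without CDK4WT replicate 1.

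MYO18A, a myosin with a PDZ domain that links the Golgi to actin through GOLPH3, had 111, 116, 101 and 114 CPM in CDK4WT and 123, 105, 114 and 102 CPM in CDK4KO. Libraries of the genotypes were interleaved, with a log2 fold change of 0.01 ± 0.07 (95% interval -0.15 to 0.17), which took either sign when single libraries were left out (-0.05 to 0.05). Of its exon bases, 9.26% are shared with TIAF1 on the same strand. MYO19, the motor on the outer mitochondrial membrane, was the member with a negative value. It had 186, 198, 189 and 165 CPM in CDK4WT and 169, 159, 154 and 180 CPM in CDK4KO, so that CDK4WT library 4 lay within the CDK4KO range and CDK4KO libraries 1 and 4 within the CDK4WT range. The log2 fold change was -0.16 ± 0.07 (adjusted p = 0.391, 95% interval -0.32 to 0.002). Exons of ZNHIT3 and PIGW on the other strand cover 7.99% and 4.45% of its exon bases, so a part of its count is uncertain where strand was not used.

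Setting MYO5C against each relative within the same library removes the scaling between libraries. MYO5C had 1.07, 0.877, 1.04 and 0.97 counts per MYO5A count in CDK4WT and 1.23, 1.38, 1.27 and 1.64 in CDK4KO, which do not overlap. Mean ratios were 1.39-fold (to MYO5A) to 1.70-fold (to MYO19) higher in CDK4KO, and the genotypes did not overlap in 7 of 8 ratios. The exception was the ratio to MYO6, where CDK4WT library 1 had 0.749 and CDK4KO library 1 0.694. MYO5C was chosen for its own difference, and a ratio to a steady gene carries that difference over. These ratios therefore carry no test, and the share of all genes with such separate ratios to MYO5C was not computed.

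**Figure D2:**
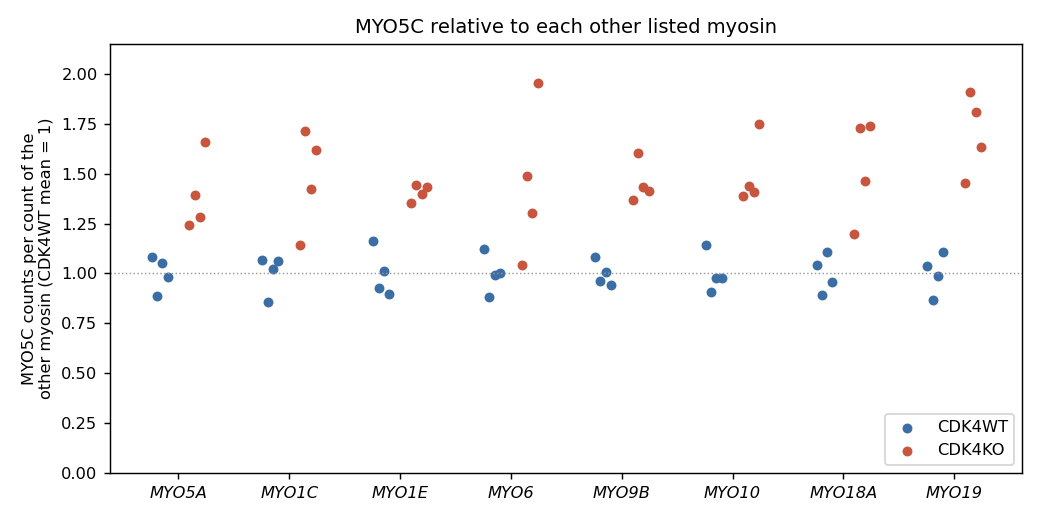
MYO5C counts divided by the counts of each other listed myosin in the same library, relative to the CDK4WT mean (y axis, from 0; CDK4WT blue, CDK4KO red, 4 libraries each). Red points lie above all blue points in each column except MYO6, where 1 CDK4KO library falls among the CDK4WT libraries.

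Levels of different genes were compared per kilobase of merged exons (CPM per kb). In CDK4WT the order was MYO1C (43.8 ± 3.06), MYO9B (39.5 ± 1.55) and MYO10 (37.5 ± 2.17), then MYO6 (14.2 ± 0.802) and MYO19 (14.1 ± 1.08), then MYO5C (8.24 ± 0.384), MYO18A (7.33 ± 0.446) and MYO5A (6.46 ± 0.277), and last MYO1E (4.93 ± 0.403). Neighbours among the first 3, in the next pair and in the pair of MYO18A and MYO5A overlapped in their libraries. The steps from MYO10 to MYO6, from MYO19 to MYO5C, from MYO5C to MYO18A and from MYO5A to MYO1E did not, that from MYO5C to MYO18A by a narrow margin. In CDK4KO MYO5C reached 12.6 ± 1.13 CPM per kb, level with MYO19 at 12.6 ± 0.891, and MYO5A stood at 7.11 ± 0.675. Merged exons count rarely used exons in full, which lowers the value of genes with long annotated models such as MYO19. Within a genotype, the 9 had coefficients of variation from 3.91% to 8.18% (CDK4WT) and from 6.13% to 17.9% (CDK4KO). They were larger in CDK4KO for 7 of 9, as for 67.5% of all genes.

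The rest of the family gave the same question a set of genes not listed for it. Of 16 further unconventional myosins 10 had counts, and MYO1A, MYO1G, MYO1H, MYO3A, MYO3B and MYO18B were not analysed here. None of the 10 passed edgeR's test (0 by DESeq2 and by limma voom as well), where edgeR called 0.0591% of all genes. With edgeR 1, MYO1F, had an unadjusted p under 0.05, as had 13.0% of all genes. The median log2 fold change was 0.07 with 6 of 10 positive, and the median was below 0 without CDK4KO replicate 2 (-0.004) or 3 (-0.04).

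MYO1F, a long-tailed class I myosin known mainly from leukocytes, had 11.2, 7.23, 17.0 and 13.5 CPM in CDK4WT and 37.1, 22.6, 17.6 and 18.2 CPM in CDK4KO. The genotypes did not overlap, though by a narrow margin (17.0 against 17.6 CPM), and CDK4KO library 1 was the highest. Its log2 fold change of 0.97 ± 0.31 was larger than that of MYO5C with more than 4 times its error, and did not pass (edgeR adjusted p = 0.246, and 0.216 to 0.436 when each library was left out). The leukocyte marker PTPRC was at 2.53 to 4.32 CPM in CDK4WT and 2.26 to 3.39 CPM in CDK4KO. The leukocyte marker CD14 was at 0.97 to 1.37 CPM and 1.02 to 3.32 CPM, highest in CDK4KO library 1 as MYO1F was. Its log2 fold change was 0.70, against -0.37 for PTPRC, -0.15 for AIF1, -0.13 for CSF1R and 0.01 for LYZ. The part of leukocytes in the value of MYO1F was not tested.

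MYO9A, the other RhoGAP myosin, had a log2 fold change of 0.15 ± 0.08 (adjusted p = 0.477). MYO9A was at 44.3 to 49.3 CPM in CDK4WT and 45.7 to 56.4 CPM in CDK4KO, and passed when CDK4KO libraries 1 and 4 were both left out (0.29, adjusted p = 0.0457), a choice made after seeing the data. MYO7A and MYO7B, motors of stereocilia and of brush-border microvilli, were at 0.04 ± 0.12 and -0.21 ± 0.17. MYO1D, MYO15A, MYO15B and MYO16 were low, at mean levels of 1.15 to 3.40 CPM in CDK4WT. Their log2 fold changes were -0.09 ± 0.17, 0.09 ± 0.25, -0.20 ± 0.26 and 0.31 ± 0.29, and the 95% intervals of MYO15A, MYO16 and MYO5B were wide, with upper ends of 0.64, 0.95 and 0.90. Over the 18 measured unconventional myosins besides MYO5C, 13 log2 fold changes were positive and the median was 0.06.

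**Figure D3:**
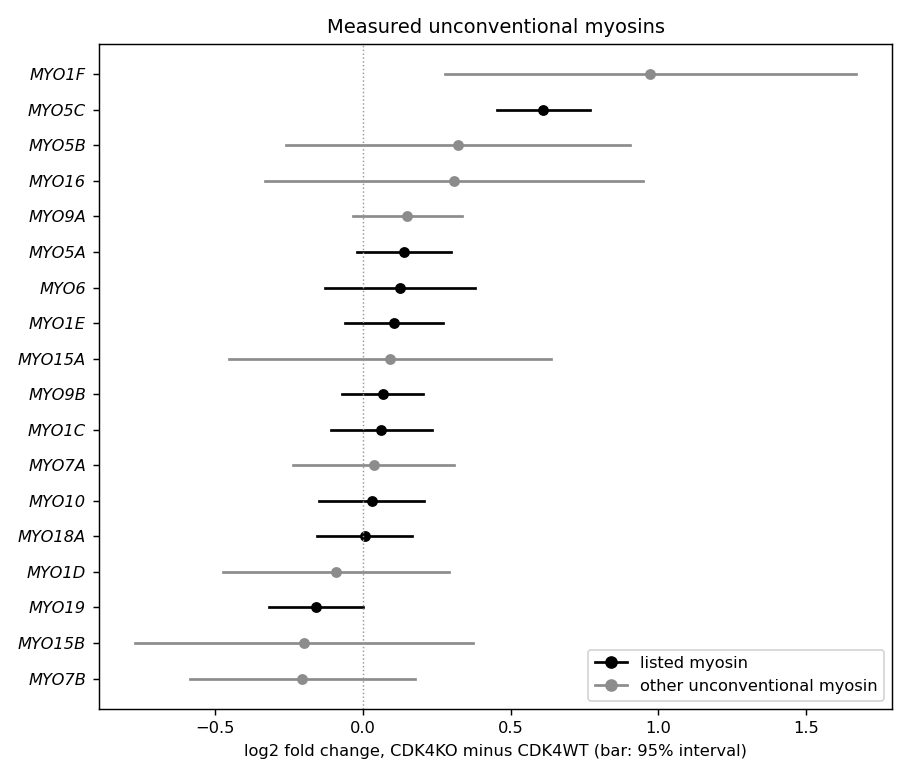
Log2 fold change, CDK4KO minus CDK4WT, of 18 of the 19 measured unconventional myosins with 95% intervals (black: the 9 listed; grey: 9 of the other 10). MYO5C is drawn at 0.61 as a description, MYO1F at 0.97 has a wide interval, and the other 8 listed myosins lie between -0.16 and 0.14.

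The genes around MYO5C on chromosome 15 were then examined. Of 9 measured genes within 0.5 Mb, 0 passed edgeR's test, with adjusted p of at least 0.448. Log2 fold changes were -0.06 to 0.14 with a median of 0.06, 7 of them positive (51.2% of all genes). In 0 of 9 were the genotypes separate (7.68% of all genes). GNB5, a G protein beta subunit whose gene starts 0.953 kb beyond the 3′ end of MYO5C on the same strand, had 38.2 CPM ± 2.24 (CDK4WT) and 37.0 CPM ± 3.08 (CDK4KO) (-0.05 ± 0.08). ARPP19, an inhibitor of the phosphatase PP2A at mitotic entry and the next gene beyond MYO5A, was at 234 CPM ± 10.5 and 244 CPM ± 11.1 (0.06 ± 0.06). TMOD2 and TMOD3, tropomodulins that cap actin filaments, were at 0.06 ± 0.13 and 0.02 ± 0.05. MAPK6, LEO1, LYSMD2 and ATOSA were at 0.07 ± 0.06, -0.06 ± 0.06, 0.12 ± 0.11 and 0.08 ± 0.07.

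**Figure D4:**
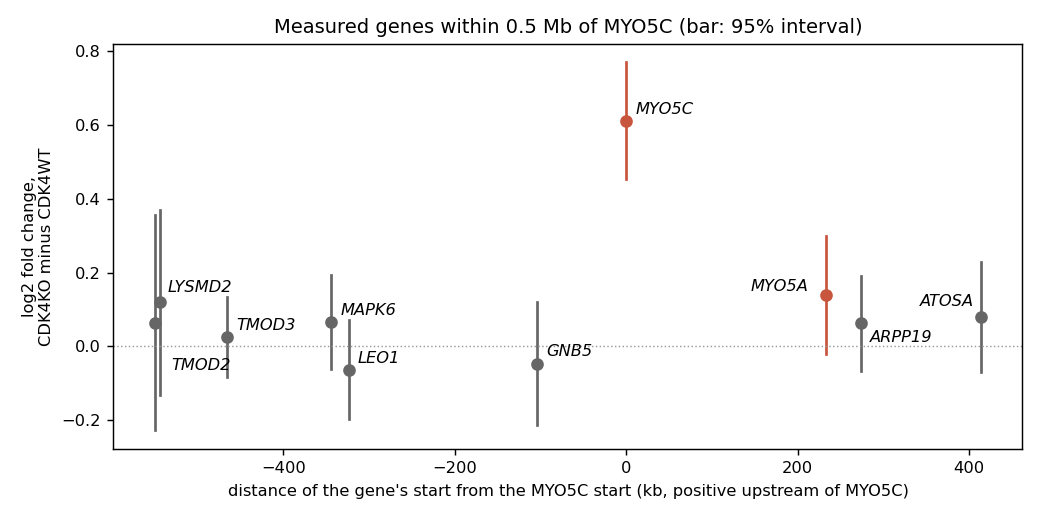
Log2 fold change with 95% interval (y axis) of each measured gene within 0.5 Mb of MYO5C against the distance of its start from the MYO5C start (x axis, kb). The window runs from the gene's ends, so starts can lie farther away, and LYSMD2 and TMOD2, whose starts nearly coincide, are drawn side by side; MYO5C stands at 0.61 and the 9 neighbours between -0.06 and 0.14.

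Myosins act with light chains and cargo adaptors, and these were described from lists of their genes. The counts for each list below stand against shares over all genes with edgeR. These were 0.0591% called, 13.0% with an unadjusted p under 0.05, 51.2% positive and 7.68% with separate genotypes. Calmodulin, which fills the necks of most unconventional myosins, and the light chains and dynein light chains of myosin complexes had a median log2 fold change of 0.09, with 9 of 10 positive and 0 past the test. MYL6, the essential light chain shared with myosin II, was at 287 to 307 CPM and 305 to 390 CPM (0.20 ± 0.08, adjusted p = 0.309), highest in CDK4KO library 4. DYNLL1 and DYNLL2, dynein light chains of which DYNLL2 also binds myosin Va, were at 0.10 ± 0.06 each. At an unadjusted p of 0.05, 1 of these 10 had passed with edgeR (MYL6).

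Rab GTPases and adaptors of class V myosins had a median of 0.05, with 14 of 20 positive and 0 past the test (3 at an unadjusted p of 0.05 with edgeR; RAB25 and MYRIP were not analysed here). RAB27B, a Rab of secretory granules and exosome release, had 36.3, 31.3, 35.4 and 46.2 CPM in CDK4WT and 45.3, 51.1, 47.8 and 94.2 CPM in CDK4KO. CDK4KO library 4 was far above the rest, CDK4KO library 1 lay below CDK4WT library 4, and the log2 fold change of 0.68 ± 0.24 (adjusted p = 0.291) was 0.37 without CDK4KO replicate 4. RAB11FIP2, which joins Rab11 vesicles to class V myosins, was at 25.3 to 31.0 CPM in CDK4WT and 29.7 to 34.5 CPM in CDK4KO (0.21 ± 0.08, adjusted p = 0.30). SPIRE2, an actin nucleator that binds class V tails, was at 10.8 to 12.8 CPM and 12.3 to 15.5 CPM (0.23 ± 0.09, adjusted p = 0.324), and SYTL4, the Rab27 effector granuphilin, at 21.8 to 26.5 CPM and 24.8 to 32.1 CPM (0.23 ± 0.11, adjusted p = 0.385). In each of these 4 genes the genotypes overlapped.

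Adaptors of MYO6 had a median of 0.05, with 6 of 8 positive and 0 past edgeR's test. TOM1L2, an endosomal adaptor of MYO6, had 103, 106, 104 and 115 CPM in CDK4WT and 133, 127, 134 and 110 CPM in CDK4KO. CDK4KO library 4 lay among the CDK4WT libraries and the other 3 above them (0.24 ± 0.07, adjusted p = 0.224). It passed with limma voom (0.28, adjusted p = 0.0338) and without CDK4KO libraries 1 and 4 (0.29, adjusted p = 0.0398). DAB2, GIPC1 and LMTK2 were at 0.11 ± 0.07, 0.08 ± 0.07 and 0.10 ± 0.10. Only TOM1L2 of the 8 had an unadjusted p under 0.05 with edgeR.

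Partners of the other classes had a median of 0.04, with 10 of 16 positive, 0 past the test and 3 at an unadjusted p of 0.05 with edgeR. CDC42BPB, the kinase MRCK-beta, which acts with MYO18A on actomyosin, had 264, 276, 277 and 293 CPM in CDK4WT and 339, 300, 293 and 299 CPM in CDK4KO. The genotypes touched without overlapping (0.15 ± 0.06, adjusted p = 0.358). RHOT2, or MIRO2, the mitochondrial GTPase that anchors MYO19, had 112, 103, 103 and 110 CPM and 99.9, 94.2, 92.1 and 98.5 CPM. All 4 CDK4KO libraries were below all 4 CDK4WT libraries, and the value did not pass (-0.15 ± 0.05, adjusted p = 0.278). FSCN1, the actin bundler of filopodia along which MYO10 moves, was at 0.17 ± 0.07 (adjusted p = 0.365).

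Conventional myosin II heavy chains, the motors of contraction, had 5 of 14 genes measured and 0 past the test, 0 also at an unadjusted p of 0.05 with edgeR. MYH9 was at 1255 to 1404 CPM in CDK4WT and 1067 to 1424 CPM in CDK4KO (-0.09 ± 0.09), and MYH10 at 23.9 to 30.9 CPM and 11.7 to 26.1 CPM (-0.38 ± 0.21, adjusted p = 0.484), lowest in CDK4KO library 1. MYH15 and MYH11 were at -0.21 ± 0.19 and -0.28 ± 0.21. The 5 values were negative, with a median of -0.21.

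**Figure D5:**
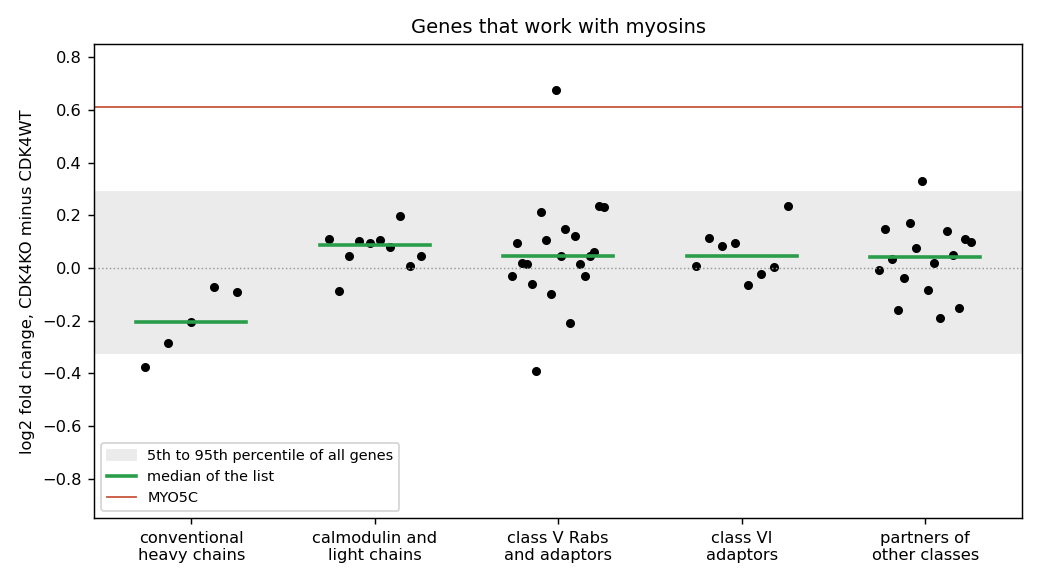
Log2 fold change (y axis) of each measured gene in 5 lists of myosin heavy chains, light chains and partners, with the median of each list (green), MYO5C (red line, 0.61) and the 5th to 95th percentile of all genes (grey, -0.32 to 0.29). RAB27B at 0.68 is the point above the line.

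The genes whose pattern over the 8 libraries was nearest to that of MYO5C were not myosins. Likeness was measured as the root mean square difference of centred log2 CPM among 11439 other genes with an average log2 CPM of at least 2, where the median difference was 0.338. The 5 nearest were ZNF503, a zinc-finger repressor (0.103), MANSC1 (0.105), TUT7, a terminal uridylyltransferase (0.114), SHANK2, a postsynaptic scaffold protein that binds actin regulators (0.116), and PPP1R10, the nuclear regulator PNUTS of phosphatase PP1 (0.121). Such genes share with MYO5C a difference between the genotypes, which the choice of MYO5C fixed. ZNF503 went from 12.5 CPM ± 0.666 to 18.8 CPM ± 2.14, MANSC1 from 24.04 ± 1.53 to 33.3 ± 3.73, TUT7 from 78.5 ± 3.69 to 110 ± 9.19, SHANK2 from 12.4 ± 1.49 to 18.9 ± 1.92 and PPP1R10 from 73.6 ± 5.05 to 100.2 ± 6.40. In each of the 5 all CDK4KO libraries were above all CDK4WT libraries. The nearest unconventional myosin among those ranked was MYO9A, in place 696 (0.248), followed by MYO1E in place 1412 (0.272) and MYO5A in place 1451 (0.273), while MYO19 was in place 9442 (0.407). MYO5B, MYO1D, MYO15A, MYO15B and MYO16 were below the level required and were not ranked.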

How the data were processed

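mRNA of 8 tumours was sequenced after Trizol extraction (labels' protocols). The table the authors deposited holds raw counts per Ensembl gene, as whole numbers without normalization. The submitters' processing notes name cutadapt, STAR 2.7.11a, featureCounts 2.0.4, DESeq2 1.46.0 and hg38; no annotation release, strand setting or handling of mouse reads is given in the sources used here, and mouse reads may be among the counts. Each deposited gene exceeds 1 CPM in 4 or more libraries, and edgeR's filter removed 0. CDK4KO columns were matched to replicates 1 to 4 through the library names.

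Symbols were found for 13524 of 13546 identifiers, and coordinates and exon lengths (GENCODE 29, hg38) for 13455. CPM are scaled by TMM (trimmed mean of M values). The test of CDK4KO against CDK4WT used edgeR 4.0.16 in R 4.3.3 (robust quasi-likelihood test, Benjamini-Hochberg over all genes, threshold 0.05; SE from the F statistic; prior count of log2 CPM 2). Alternatives were DESeq2 1.42.0, limma 3.58.1 voom, other scalings and filters, a block for the replicate number, leaving out each library, and host marker genes removed. On simulated counts of 13546 genes for this comparison, 72%, 84% and 98% of genes changed 1.5-fold, 2-fold and 4-fold were recovered. False calls were at 6.86%. These rates hold for the simulated counts only, and recovery in the 8 real libraries was not tested. In the real libraries edgeR called 6 genes higher in CDK4KO, and MYO5C at 1.53-fold was in place 116 among rises by log2 fold change.

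Members and lists were chosen with earlier results of these data known. Named genes are all measured unconventional myosins, up to 4 genes of smallest p per partner list, genes within 0.5 Mb of MYO5C and the 5 nearest profiles. CD14, PTPRC, AIF1, CSF1R, LYZ, VWF, VIM, TIE1, ESAM and ROBO4 were named after their values were seen. Values of some genes that this rule names, 1 myosin among them, are not reported here.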

Additional observations from a re-analysis of the deposited data

Results flagged for a closer look

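In 3 of 104 groups of 4 libraries (52 named genes in each genotype) the highest or lowest library lay far from the other 3; chance alone flags about 1 in 20 such groups. MYO10 was lowest in CDK4WT library 1, at 478 CPM against 532 to 542 CPM in the other CDK4WT libraries. RAB27B was highest in CDK4KO library 4, at 94.2 CPM against 45.3 to 51.1 CPM in the other CDK4KO libraries. CDC42BPB was highest in CDK4KO library 1, at 339 CPM against 293 to 300.0 CPM.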

How the results depend on the processing

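The 8 relatives of MYO5C gave 0 calls under each of 17 alternatives, and the log2 fold change of MYO5C stayed between 0.57 and 0.67. Among the other 10 unconventional myosins 0 were called except without CDK4KO libraries 1 and 4, where 1 was (MYO9A). The number of genes called among all 13546, 8, was less stable: 315 with DESeq2, 285 with limma voom, 14 with library size as the scaling, 20 without host marker genes and 447 without CDK4KO libraries 1 and 4, the last chosen after seeing the data. Leaving out 1 library gave 0 to 183 genes. The 0 was without CDK4WT replicate 4 (1582 genes with edgeR p under 0.05 before adjustment) and without CDK4KO replicate 2 (1688 genes), the 183 without CDK4KO replicate 1, with 17 without CDK4KO replicate 4 and 1 without each of the others. The replicate numbers are not known to pair tumours: deviations of same-numbered libraries correlated at -0.03, -0.01, 0.003 and 0.19, and with the replicate block 13 genes were called and 0 of the 8 relatives. MYO10, MYO18A, MYO1D, MYO7A, MYO15A and TMOD2, none of them called, took either sign among the alternatives. Of the other 10 myosins, 5 dropped out at a minimum of 5 CPM in 4 libraries, and MYO5B, 1 of these 5, rested on 34 to 100 reads per CDK4KO library.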
